A study of Mus musculus with 9 samples.

Results

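Integrins are the adhesion receptors that hold lymphocytes to vessel walls, matrix and epithelium, and 10 integrin chain genes were followed here in innate lymphoid cells (ILCs) of mouse skin. The genes were taken by name: Itga4, Itgae, Itga1, Itga2, Itgal and Itgav for α chains, and Itgb1, Itgb2, Itgb3 and Itgb7 for β chains. Each was read by 1 probe set carrying that gene symbol alone in the platform annotation, which names 19752 genes in all. All 10 probe sets passed the filter on dim signals described below. The 9 samples, 1 Affymetrix array each, form 4 groups: 2 Rag1-/- GFP+, 3 Rag1-/- GFP-, 2 Rag1-sufficient GFP+ and 2 Rag1-sufficient GFP- samples. All mice were female B6 animals that were heterozygous for EGFP at the Ccr10 locus (CCR10+/EGFP), so GFP marks cells that use the locus of the chemokine receptor CCR10. The Rag1-/- mice also lacked Rag1, whose recombinase builds the antigen receptors of T and B cells. Sorting took CD45.2+ cells that were negative for CD3 and for the lineage antigens Ter-119, Gr-1, 7-4, B220, CD11b and CD5. Mouse age and the number of mice behind an array are not given in the sources used here, and no label ties a replicate to a separate animal, so the p-values below describe the scatter among these arrays, part of which may be technical.

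An integrin is a pair of 1 α and 1 β chain, and the pair decides the ligand. The α4 chain (Itga4) joins β1 to bind VCAM-1 and fibronectin, or β7 to bind MAdCAM-1 in the gut, and is found on many lymphocytes and on mast cells. The αE chain (Itgae, CD103) pairs with β7 and binds E-cadherin on epithelial cells, α1β1 and α2β1 bind collagens, αLβ2 (LFA-1) binds ICAMs, and αv chains bind matrix proteins and release TGF-β from its latent form. In skin, lymphocytes that stay near the epidermis are known for CD103 and CD49a (Itga1).

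Values are the authors' deposited intensities per probe set, on a linear scale, and an intensity is read here only against the same probe set on other arrays. Array medians lay between 74.1 and 77.6, and identical values on a pair of arrays or more occurred in 12464 of 24922 probe sets. Differences are on the scale of log2(intensity + 1), given as estimate ± SE from 1 limma fit over all 9 arrays and 17445 probe sets, with p-values adjusted by Benjamini-Hochberg over all of them and 0.05 as the threshold. Dim probe sets, the 30% with a mean log2 value below that of an intensity of 41.6, were not tested. The ILC genes Id2 (6727 to 7905) and Il7r (2566 to 3806) were bright on every array, as was Gata3 (2263 to 4017). Rag1 itself read 28.4 to 31.4 on all 9 arrays, below the filter limit in both genotypes, so it gives no check of the genotype. Ccr10 overlapped between the gates in Rag1-/- mice and was higher on both GFP+ arrays in Rag1-sufficient mice, at 96.5 and 148 in Rag1-/- GFP+, 103 to 125 in Rag1-/- GFP-, 163 and 130 in Rag1-sufficient GFP+ and 129 and 126 in Rag1-sufficient GFP- cells. Markers of other cell types were present as well. Keratinocyte markers summed to between 634 and 2495 per array (at most 1 of 7 below the filter limit), fibroblast markers to between 767 and 1608 (at most 1 of 6) and macrophage and dendritic cell markers to between 491 and 743 (2 to 5 of 10). The 12 mast cell markers summed to 1384 and 4919 in Rag1-/- GFP+, 4852 to 6161 in Rag1-/- GFP-, 945 and 1028 in Rag1-sufficient GFP+ and 10560 and 10739 in Rag1-sufficient GFP- samples. The 10 T cell markers, in cells sorted without CD3, summed to 3985 and 7302, to 5019 to 7597, to 3727 and 3065, and to 2452 and 2382 in the same 4 groups.

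Itga4 was the chain, of 10, that passed the threshold, in 1 of the 4 comparisons between groups. It was lower in GFP+ than in GFP- cells of Rag1-sufficient mice, where 0.47% of all tested probe sets were called lower and 0.803% were called in either direction. At an unadjusted p under 0.05 there were 2 chains (Itga4 and Itgav), against 13% of all sets. Between GFP+ and GFP- cells of Rag1-/- mice none of the chains was called; limma called 0% of all probe sets there. At an unadjusted p under 0.05 there were 1098 sets (6.29%), among them 2 chains, Itgae and Itgb2. Between Rag1-/- and Rag1-sufficient GFP+ cells no chain was called, against 0.246% of all sets, and 2 chains (Itga2 and Itgav) had an unadjusted p under 0.05, against 6.82%. No chain was called either between Rag1-/- and Rag1-sufficient GFP- cells, against 0.143% of all sets, and 4 chains (Itga4, Itgae, Itgal and Itgb7) had an unadjusted p under 0.05, against 17.3%. The gate comparison in Rag1-sufficient mice and the genotype comparison in GFP+ cells share the Rag1-sufficient GFP+ arrays, and each of the other groups also enters more than a single comparison.

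**Figure D1:**
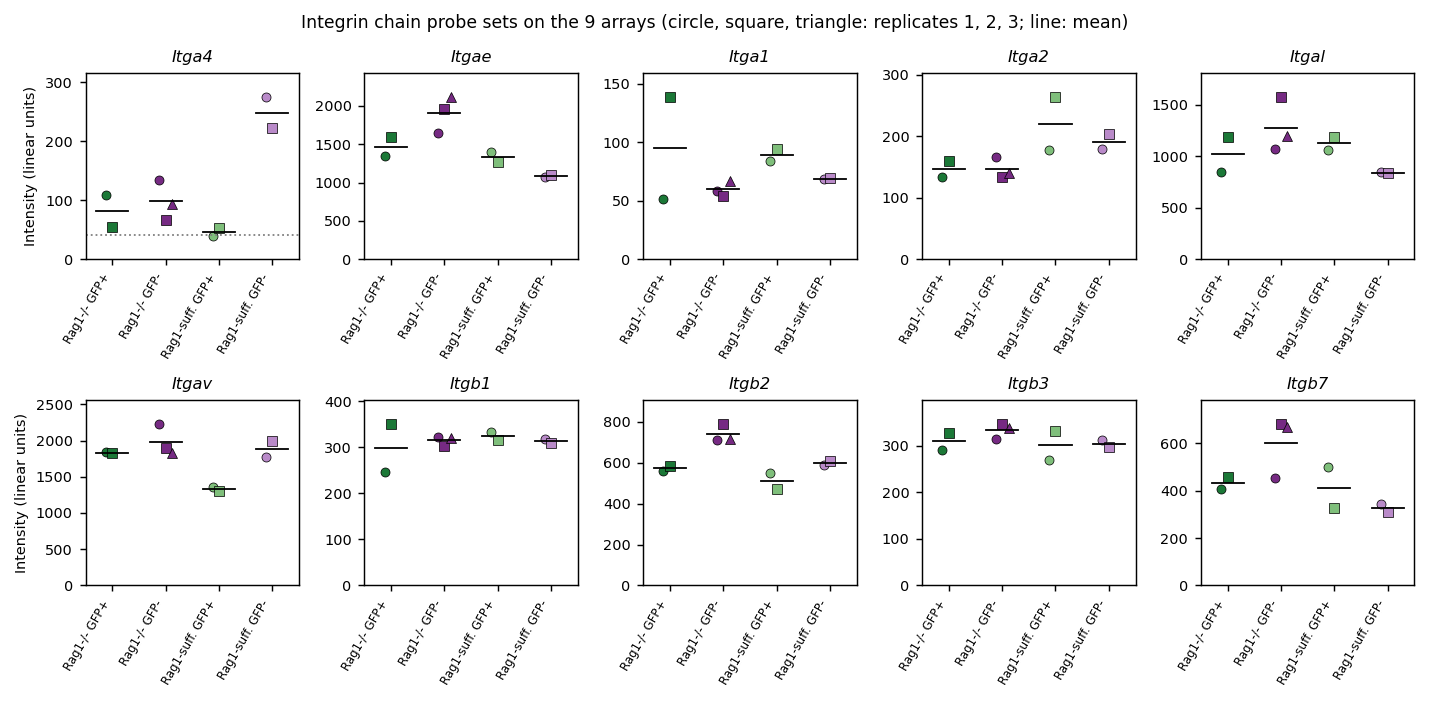
Deposited intensity (linear units, axes from 0) of the 10 integrin chain probe sets on the 9 arrays; points are arrays, marker shapes are replicate numbers and lines are group means. The dotted line in the Itga4 panel is the limit of the dim-signal filter. The 2 Rag1-sufficient GFP- arrays stand above all others for Itga4, and the Rag1-/- GFP- arrays hold the highest values of Itgae.

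Itga4, the α chain of α4β1 and α4β7, read 108 and 54.0 in Rag1-/- GFP+, 134, 66.5 and 93.1 in Rag1-/- GFP-, 39.3 and 52.5 in Rag1-sufficient GFP+, and 274 and 223 in Rag1-sufficient GFP- cells. The 2 Rag1-sufficient GFP- arrays lay above the other 7, and the 2 Rag1-sufficient GFP+ arrays below them, at or near the filter limit. The gate difference in Rag1-sufficient mice was -2.42 ± 0.37 (limma adjusted p = 0.0256), with group means of 45.9 ± 9.32 in GFP+ and 249 ± 36.5 in GFP- cells (SD, n = 2 each). Of the GFP+ arrays, 1 read below the filter limit. The call was lost on leaving out any of these 4 arrays, with differences of -2.62 to -2.21. Each such fit leaves 1 array in a group, so it cannot tell a weak call from too few arrays.

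In Rag1-/- mice the fractions overlapped for Itga4, with a difference of -0.29 ± 0.34 (adjusted p = 0.796) and a 95% interval of -1.07 to 0.48. Without Rag1-/- GFP+ replicate 2 that difference was 0.20. Among GFP- cells, Rag1-/- arrays were all lower than Rag1-sufficient arrays, by -1.38 ± 0.34 (adjusted p = 0.148). Among GFP+ cells, Rag1-/- arrays were both higher, by 0.74 ± 0.37 (adjusted p = 0.763). The test of the difference between the gate effects of the genotypes (Rag1-/- minus Rag1-sufficient) gave 2.12 ± 0.50 (adjusted p = 0.229), and without Rag1-/- GFP+ replicate 2 it gave 2.62 (adjusted p = 0.0427).

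Between the gates of Rag1-sufficient mice, transcripts of mast cells and of other cell types were lower in GFP+ cells, as Itga4 was. All 9 tested mast cell markers were lower in GFP+ cells there, and 7 passed the threshold, against 0.47% of all sets called lower. Among the 7 were the mast cell receptor Mrgprb1 and the chymase Cma1. The list's median difference was -2.30, against 0.01 over all tested sets. All 12 markers were above the filter limit on both Rag1-sufficient GFP- arrays, while 7 and 8 of them lay below it on the Rag1-sufficient GFP+ arrays. In the Rag1-/- GFP+ samples, replicate 1 had both more Itga4 (108) and a higher marker sum (4919) than replicate 2 (54.0 and 1384). In the same comparison all 7 tested macrophage, monocyte and dendritic cell markers had negative differences, with a median of -0.59, and 1 was called: Xcr1, a chemokine receptor of dendritic cells, at -0.78 ± 0.07 (adjusted p = 0.00843). Their sums were 552 and 603 in Rag1-/- GFP+, 546 to 603 in Rag1-/- GFP-, 491 and 511 in Rag1-sufficient GFP+ and 682 and 743 in Rag1-sufficient GFP- cells. Xcr1 was also lower in Rag1-/- than in Rag1-sufficient GFP- cells, by -0.72 ± 0.07 (adjusted p = 0.0125). All 7 keratinocyte markers had negative differences between the gates of Rag1-sufficient mice too, with a median of -0.66. None was called, and 2 had an unadjusted p under 0.05, against 13% of all sets. Among GFP+ cells keratinocyte sums were lower in Rag1-/- (634 and 693) than in Rag1-sufficient mice (1006 and 1049), while Itga4 was higher. Mast cell and macrophage sums were higher there, as Itga4 was, but not through all their markers. On Rag1-/- GFP+ replicate 2, Kit (974, against 482 and 583), Mrgprb1 and Fcer1a were above both Rag1-sufficient GFP+ arrays. The other mast cell markers were below both. Of the macrophage, monocyte and dendritic cell markers, 3 had positive and 4 negative differences between the GFP+ groups, with a median of -0.06. The part of RNA from these cell types in the Itga4 difference was not tested, and in bulk samples such as these a change in the number of cells of a type cannot be told apart from a change in RNA per cell.

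The 3 named genes whose log2 values were most like those of Itga4 over the 9 arrays were Mrgprb1 (Pearson r = 0.975, Spearman rho = 0.967), the transcriptional corepressor Ctbp2 (r = 0.965) and the long noncoding RNA Lncpint (r = 0.962). Mrgprb1 read 81.5 and 31.4 in Rag1-/- GFP+, 121, 68.7 and 87.0 in Rag1-/- GFP-, 25.8 and 26.2 in Rag1-sufficient GFP+, and 284 and 308 in Rag1-sufficient GFP- cells. As for Itga4, its highest arrays were the 2 Rag1-sufficient GFP- arrays and its lowest the 2 Rag1-sufficient GFP+ arrays. These correlations describe 9 arrays that fall into 4 groups.

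The sequence before the start of Itga4 is shown beside that of Itgb1, the gene for its β1 partner, since the probe set of Itga4 differed and that of Itgb1 did not pass in any comparison. RefSeq (GRCm38.p6) promoters were found for 6 of the 10 chains. The 250 bases before the start are printed 5′ to 3′, for Itga4 at chr2:79255176-79255425 (plus strand) and for Itgb1 at chr8:128685404-128685653 (plus strand). Capitals mark matches to the GC box GGGCGG and to the RUNX core TGTGGT, which is ACCACA when read on the other strand.
Itga4: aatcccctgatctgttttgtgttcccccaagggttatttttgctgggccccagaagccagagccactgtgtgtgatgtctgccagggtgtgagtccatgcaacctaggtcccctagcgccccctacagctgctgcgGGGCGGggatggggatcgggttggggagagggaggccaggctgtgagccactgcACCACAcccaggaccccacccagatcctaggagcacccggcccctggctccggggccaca
Itgb1: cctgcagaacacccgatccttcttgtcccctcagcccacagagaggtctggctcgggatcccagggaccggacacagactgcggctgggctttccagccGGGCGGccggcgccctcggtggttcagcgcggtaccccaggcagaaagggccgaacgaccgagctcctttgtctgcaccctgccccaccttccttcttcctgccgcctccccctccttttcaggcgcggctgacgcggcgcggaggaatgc
Itga4 held 1 GC box and 1 RUNX core, the RUNX core beginning 60 bases before the start, and Itgb1 held 1 GC box and no RUNX core. On both strands, the GC box letters occur in 32.7% of the 32851 RefSeq promoter windows of this length and the RUNX letters in 14.0%. The GATA letters AGATAA or TGATAA, present in 16.6% of windows, were in none of the 6 integrin windows, and no matches overlapped. These are matches of letters in a window of this size and say nothing of binding.

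Itgb1, the common partner of α1, α2, α4 and αv, read 247 and 351 in Rag1-/- GFP+, 323, 303 and 320 in Rag1-/- GFP-, 333 and 315 in Rag1-sufficient GFP+, and 317 and 310 in Rag1-sufficient GFP- cells. Apart from the 2 Rag1-/- GFP+ arrays, which held the lowest and the highest value, all arrays lay close together. Its gate difference in Rag1-sufficient mice was 0.05 ± 0.18 (adjusted p = 0.964), with a 95% interval of -0.36 to 0.45, so a change as large as that of Itga4 lies outside the interval.

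Itgae, the αE chain that binds E-cadherin, read 1340 and 1590 in Rag1-/- GFP+, 1645, 1960 and 2110 in Rag1-/- GFP-, 1398 and 1262 in Rag1-sufficient GFP+, and 1072 and 1103 in Rag1-sufficient GFP- cells. The 3 Rag1-/- GFP- arrays were the highest of the 9 and the 2 Rag1-sufficient GFP- arrays the lowest. Between these GFP- groups the difference was 0.80 ± 0.15 (adjusted p = 0.0836), a ratio of 1.74, with a 95% interval of 0.46 to 1.14. It did not pass the threshold in the fit used here, and passed with array weights (adjusted p = 0.00989) and without Rag1-/- GFP- replicate 1 (adjusted p = 0.0440). With array weights 1168 of all 17445 sets passed in this comparison, against 25 in the fit used here.

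On these arrays the gates lay apart for Itgae in opposite directions in the 2 genotypes, with neither difference called. Groups without overlap between gates made up 50.2% of all tested sets in Rag1-sufficient and 15.4% in Rag1-/- mice. In Rag1-/- mice both GFP+ arrays lay below all GFP- arrays, with a difference of -0.38 ± 0.15 (adjusted p = 0.688). In Rag1-sufficient mice both GFP+ arrays lay above both GFP- arrays, with a difference of 0.29 ± 0.16 (adjusted p = 0.531). The difference between the gate effects was -0.66 ± 0.22 (adjusted p = 0.280). Among GFP+ cells the genotypes overlapped, with a difference of 0.14 ± 0.16 (adjusted p = 0.931).

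Itgb7, the β chain shared by αEβ7 and α4β7, read 408 and 458 in Rag1-/- GFP+, 452, 682 and 667 in Rag1-/- GFP-, 499 and 327 in Rag1-sufficient GFP+, and 342 and 311 in Rag1-sufficient GFP- cells. Its 2 highest arrays, Rag1-/- GFP- replicates 2 and 3, were also the 2 highest for Itgae. Between GFP- groups the difference was 0.85 ± 0.24 (adjusted p = 0.177). With array weights the adjusted p was 0.0353, in a setting where 1168 of all sets passed. Over the 9 arrays Itgb7 and Itgae had a Pearson r of 0.933 and a Spearman rho of 0.867, whereas Itgb7 and its other partner Itga4 had an r of -0.45. These values are given as a description of arrays that share groups.

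The genes most like Itgae over the 9 arrays were the γ-tubulin gene Tubg1 (Pearson r = 0.972), the thioesterase gene Ppt2 (0.971) and Ramp1, a subunit of the CGRP receptor (0.970). Ramp1 read 190 and 207 in Rag1-/- GFP+, 221, 392 and 431 in Rag1-/- GFP-, 207 and 166 in Rag1-sufficient GFP+, and 133 and 133 in Rag1-sufficient GFP- cells. For Ramp1 too, the Rag1-/- GFP- arrays were the highest and the Rag1-sufficient GFP- arrays the lowest. T cell markers, whose sums are given above, were likewise lowest on the 2 Rag1-sufficient GFP- arrays, and their highest sum was on Rag1-/- GFP- replicate 3, the array with the most Itgae. In contrast, Rag1-/- GFP+ replicate 2 had the second highest sum of T cell markers (7302) with Itgae at 1590, below all 3 Rag1-/- GFP- arrays. Between the GFP- groups the 9 tested T cell markers had a median difference of 0.42, against 0.00 over all sets, and limma called 0 of them. At an unadjusted p under 0.05, 5 of the 9 were higher and 2 lower (Cd5 and Cd8a), against 17.3% of all sets in either direction. Cd3g, a chain of the CD3 complex, was the largest part of the sum on every array. It made up 4859 of 7597 on Rag1-/- GFP- replicate 3 and 891 of 2452 on Rag1-sufficient GFP- replicate 1. Between the GFP+ groups 1 T cell marker was called, against 0.246% of all sets: Cd3e at 2.68 ± 0.39 (adjusted p = 0.0419). The cells were sorted without CD3 and CD5, and the sums were higher on all arrays of mice that lack Rag1 than on the others. The sums describe transcripts, and whether any T cells contributed to them was not tested. The part of these transcripts in the Itgae values was not tested.

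**Figure D2:**
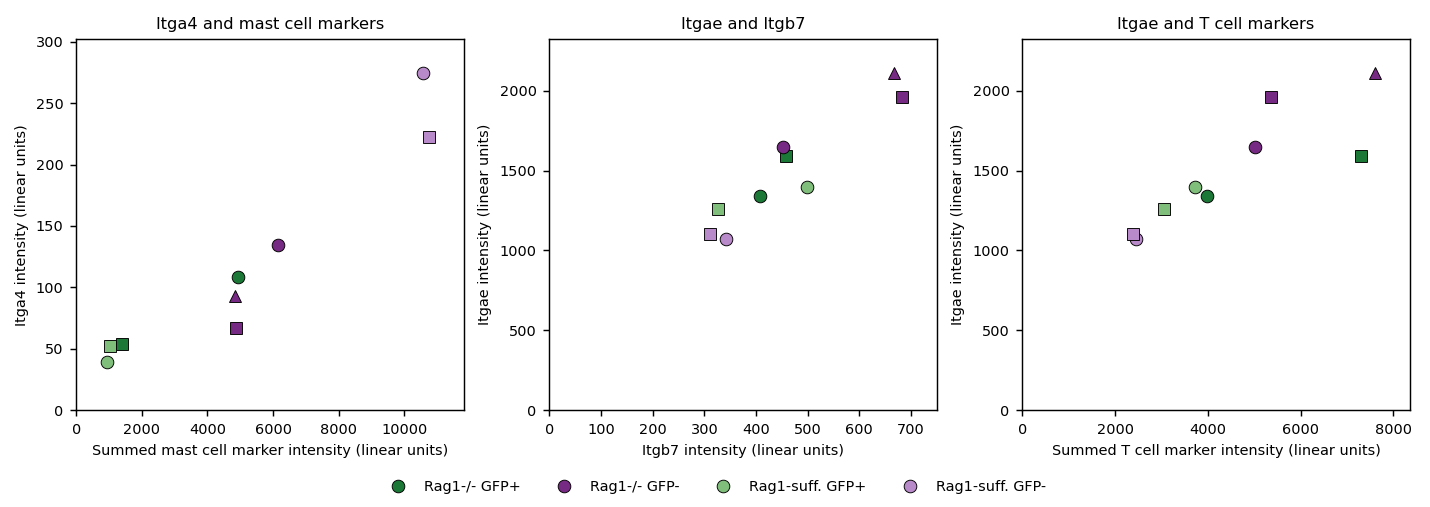
Intensity (linear units) per array of Itga4 against the summed intensity of 12 mast cell markers, of Itgae against Itgb7, and of Itgae against the summed intensity of 10 T cell markers; colours are groups and shapes are replicate numbers. Itga4 is highest on the 2 arrays with mast cell sums of 10560 and 10739, and the 2 arrays with the most Itgb7 also have the most Itgae.

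Itga1, the α1 chain of a collagen receptor that marks tissue-resident lymphocytes, read 51.6 and 138 in Rag1-/- GFP+, 58.7, 54.0 and 67.1 in Rag1-/- GFP-, 84.0 and 93.9 in Rag1-sufficient GFP+, and 68.2 and 69.6 in Rag1-sufficient GFP- cells. A single array, Rag1-/- GFP+ replicate 2, held the highest value, while replicate 1 of the same group held the lowest. The Rag1-/- gate difference of 0.50 ± 0.33 (adjusted p = 0.690) was 1.20 without GFP+ replicate 1 and -0.21 without GFP+ replicate 2. Rag1-sufficient GFP+ arrays were both above the GFP- arrays, by 0.36 ± 0.36 (adjusted p = 0.787). Beside these values, the 8 NK and ILC1 markers summed to 652 and 1424 in Rag1-/- GFP+ cells, with the higher sum on the array with the most Itga1. They summed to 768 to 886 in Rag1-/- GFP-, to 1007 and 1105 in Rag1-sufficient GFP+ and to 640 and 650 in Rag1-sufficient GFP- cells. On each array 3 to 5 of the 8 markers were below the filter limit. Only 3 passed the filter (Tbx21, Klrk1 and Prf1), so the sums describe mainly these genes. Their part in the Itga1 values was not tested.

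Itga2, the α2 chain (CD49b) of the other collagen receptor, read 134 and 161 in Rag1-/- GFP+, 166, 134 and 141 in Rag1-/- GFP-, 178 and 263 in Rag1-sufficient GFP+, and 179 and 204 in Rag1-sufficient GFP- cells. All 5 Rag1-/- arrays were below all 4 Rag1-sufficient arrays. The genotype difference was -0.56 ± 0.20 in GFP+ cells (adjusted p = 0.595) and -0.38 ± 0.19 in GFP- cells (adjusted p = 0.323). The gate left Itga2 with overlapping groups in both genotypes.

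Itgal, the αL chain of LFA-1, read 851 and 1183 in Rag1-/- GFP+, 1066, 1571 and 1199 in Rag1-/- GFP-, 1058 and 1191 in Rag1-sufficient GFP+, and 846 and 836 in Rag1-sufficient GFP- cells. Rag1-sufficient GFP- arrays were the lowest of the 9, as they were for Itgae. The difference between GFP- groups was 0.58 ± 0.20 (adjusted p = 0.224). With array weights the adjusted p was 0.0381, in a setting where 1168 of all sets passed. The gate difference was 0.42 ± 0.22 in Rag1-sufficient (adjusted p = 0.502) and -0.33 ± 0.20 in Rag1-/- mice (adjusted p = 0.689).

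Itgb2, the β2 chain of LFA-1 and of the myeloid integrins, read 559 and 586 in Rag1-/- GFP+, 710, 791 and 717 in Rag1-/- GFP-, 552 and 473 in Rag1-sufficient GFP+, and 588 and 607 in Rag1-sufficient GFP- cells. GFP+ arrays were below GFP- arrays in both genotypes without overlap, and Rag1-/- arrays were above Rag1-sufficient arrays in both fractions. None of these passed: the gate difference was -0.37 ± 0.14 in Rag1-/- mice (adjusted p = 0.688) and -0.23 ± 0.15 in Rag1-sufficient mice (adjusted p = 0.622). The genotype difference was 0.16 ± 0.15 in GFP+ cells (adjusted p = 0.910) and 0.30 ± 0.14 in GFP- cells (adjusted p = 0.301). The myeloid partner chain Itgam, which encodes the CD11b used for exclusion, stayed between 25.1 and 28.6 on every array, below the filter limit.

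Itgav, the αv chain, read 1840 and 1824 in Rag1-/- GFP+, 2231, 1900 and 1824 in Rag1-/- GFP-, 1358 and 1310 in Rag1-sufficient GFP+, and 1777 and 1991 in Rag1-sufficient GFP- cells. The 2 Rag1-sufficient GFP+ arrays were below the other 7, which overlapped. The gate difference in Rag1-sufficient mice was -0.50 ± 0.14 (adjusted p = 0.176), with a 95% interval of -0.81 to -0.18. It passed with array weights (adjusted p = 0.0243), in a setting where 1290 of all sets passed, against 140 in the fit used here. Among GFP+ cells, Rag1-/- was above Rag1-sufficient by 0.46 ± 0.14 (adjusted p = 0.469), a difference that rests on the same 2 low arrays.

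Itgb3, the β3 partner of αv, read 292 and 326 in Rag1-/- GFP+, 315, 347 and 338 in Rag1-/- GFP-, 270 and 332 in Rag1-sufficient GFP+, and 311 and 296 in Rag1-sufficient GFP- cells. Its values overlapped between the groups of 3 comparisons and did not between the GFP- groups, where the difference was 0.13 ± 0.14 (adjusted p = 0.649). The gate difference in Rag1-sufficient mice was -0.02 ± 0.16, with a 95% interval of -0.38 to 0.33, and Itgb3 did not share the low Rag1-sufficient GFP+ values of Itgav.

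**Figure D3:**
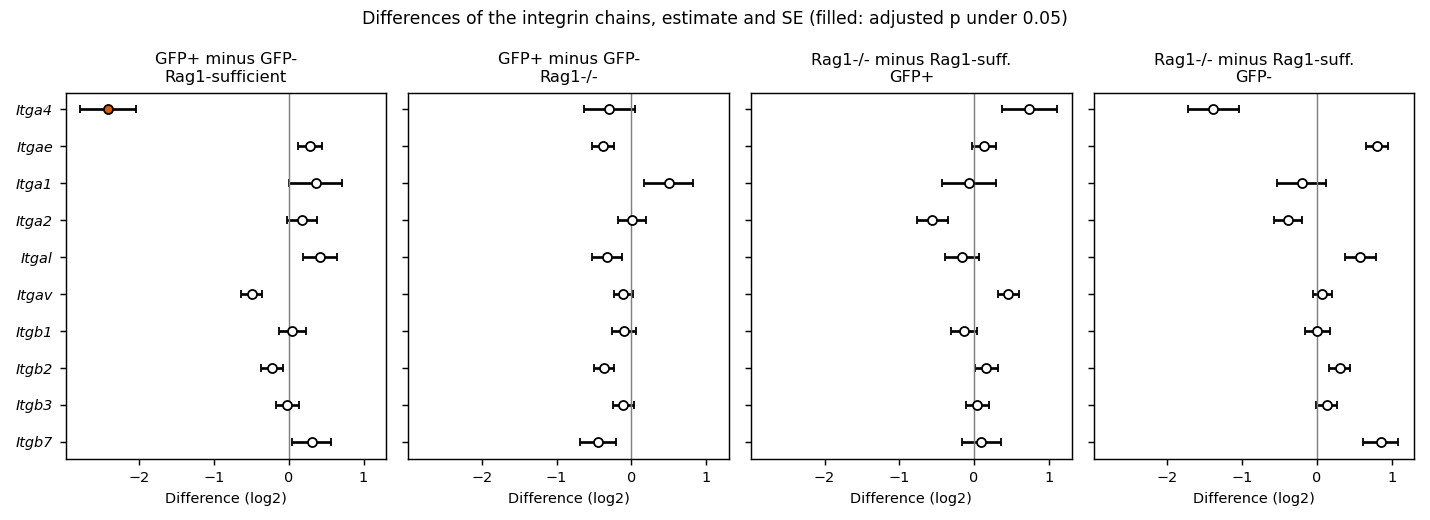
Difference in log2(intensity + 1) of each integrin chain in the 4 comparisons between groups; points are limma estimates, bars are SE and the filled point is the value with an adjusted p under 0.05. Itga4 in Rag1-sufficient mice, at -2.42, is the single filled point, and Itgae (0.80) and Itgb7 (0.85) lie to the right between the GFP- groups.

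Groups that did not overlap were common among all probe sets, and the chains are read against that background. Between the gates of Rag1-/- mice the arrays did not overlap for 2 of 10 chains, against 15.4% of all tested sets. In Rag1-sufficient mice they did not overlap for 6 of 10 chains, against 50.2% of all sets. Between genotypes the counts were 4 of 10 in GFP+ cells, against 29.5%, and 8 of 10 in GFP- cells, against 40.6%. In that last comparison 5 chains were higher in Rag1-/- cells (Itgae, Itgal, Itgb2, Itgb3 and Itgb7), against 23% of all sets, and 3 were lower (Itga4, Itga1 and Itga2), against 17.6%. The median difference of the 10 chains was 0.10 there, against 0.00 over all sets.

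Of the other integrin chains, 13 of 16 were tested, and Itga5, the α5 chain of the fibronectin receptor α5β1, was the chain that passed. It read 127 and 131 in Rag1-/- GFP+, 159, 120 and 110 in Rag1-/- GFP-, 69.0 and 90.3 in Rag1-sufficient GFP+, and 189 and 194 in Rag1-sufficient GFP- cells. Like Itga4, it was lowest on the Rag1-sufficient GFP+ arrays and highest on the Rag1-sufficient GFP- arrays. Itga5 was lower by 1.27 on the log2 scale in GFP+ than in GFP- cells of Rag1-sufficient mice (adjusted p = 0.0221). Its call was lost without any of these 4 arrays, which leaves 1 array in a group, with differences of -1.46 to -1.08. Without Rag1-/- GFP- replicate 2 the adjusted p was 0.0560. Between these gates 0.803% of all tested sets were called, and 0.47% were called lower. At an unadjusted p under 0.05, 1 of the 13 chains was higher there and 2 were lower, against 13% of all sets. In the other 3 comparisons 0 of the 13 chains passed in limma, and at an unadjusted p under 0.05 there were 0 in Rag1-/- mice (6.29% of all sets), 3 in GFP+ cells (6.82%) and 1 in GFP- cells (17.3%). Itgax, the αX chain of myeloid and activated lymphoid cells, differed by 1.03 ± 0.20 between Rag1-/- and Rag1-sufficient GFP+ cells (adjusted p = 0.130).

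In limma 0 of the genes of the activation, ligand and TGF-β lists passed in any of the 4 comparisons. The activation and linkage list (28 of 30 tested), which covers talin, kindlins and adaptors that turn integrins on and tie them to actin, had 5 genes with an unadjusted p under 0.05 between gates in Rag1-sufficient mice, against 13% of all sets, and 4 in Rag1-/- mice, against 6.29%. Between genotypes there were 3 in GFP+ cells, against 6.82%, and 7 in GFP- cells, against 17.3%. The list's medians lay between -0.06 and 0.06. In GFP- cells the LFA-1 adaptor Skap1 differed by 0.83 ± 0.22 (adjusted p = 0.166). Skap1 also differed by 0.65 ± 0.24 between the gates of Rag1-sufficient mice (adjusted p = 0.298) and by -0.48 ± 0.22 between those of Rag1-/- mice (adjusted p = 0.688). Fermt3, the kindlin of blood cells, differed by -0.56 ± 0.23 between the gates of Rag1-/- mice (adjusted p = 0.688).

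Ligand genes had 19 of 21 members tested, with medians between -0.12 and 0.11 in the 4 comparisons. At an unadjusted p under 0.05 there were 2 ligand genes between gates in Rag1-sufficient mice (13% of all sets) and 4 in Rag1-/- mice (6.29%), and between genotypes 2 in GFP+ cells (6.82%) and 3 in GFP- cells (17.3%). Cdh1, which encodes E-cadherin, the ligand of αEβ7, read 353 and 679 in Rag1-/- GFP+, 476, 437 and 501 in Rag1-/- GFP-, 249 and 244 in Rag1-sufficient GFP+, and 251 and 313 in Rag1-sufficient GFP- cells. All Rag1-/- arrays were above all Rag1-sufficient arrays, by 0.99 ± 0.28 in GFP+ (adjusted p = 0.399) and 0.75 ± 0.25 in GFP- cells (adjusted p = 0.218). Thbs1, a matrix glycoprotein bound by αvβ3, differed by -1.20 ± 0.40 between gates in Rag1-sufficient mice (adjusted p = 0.253). Keratinocytes are also a source of Cdh1. Their markers summed to 634 and 693 in Rag1-/- GFP+, 657 to 1110 in Rag1-/- GFP-, 1006 and 1049 in Rag1-sufficient GFP+ and 1227 and 2495 in Rag1-sufficient GFP- cells. Within each fraction these sums were lower on all Rag1-/- arrays than on the Rag1-sufficient arrays. The part of keratinocyte RNA in the Cdh1 values was not tested.

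For the TGF-β pathway, which induces Itgae and is fed by αv integrins, all 14 genes were tested and the medians lay between -0.10 and 0.04. At an unadjusted p under 0.05 there were 3 genes between gates in Rag1-sufficient mice (13% of all sets), 0 in Rag1-/- mice (6.29%), 1 between genotypes in GFP+ cells (6.82%) and 2 in GFP- cells (17.3%). Nrros, which holds latent TGF-β on leukocytes, differed by -0.60 ± 0.12 between gates in Rag1-sufficient mice (adjusted p = 0.0765), and the receptor Tgfbr1 by -0.62 ± 0.19 (adjusted p = 0.204). In GFP- cells Lrrc32, which presents latent TGF-β, differed by -0.60 ± 0.13 between Rag1-/- and Rag1-sufficient mice (adjusted p = 0.124). The test of whether gate effects differed between genotypes called 0% of all sets in limma (2378 with an unadjusted p under 0.05). Of the 10 chains, 3 had an unadjusted p under 0.05 in it (Itga4, Itgae and Itgal), against 13.6% of all sets.

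**Figure D4:**
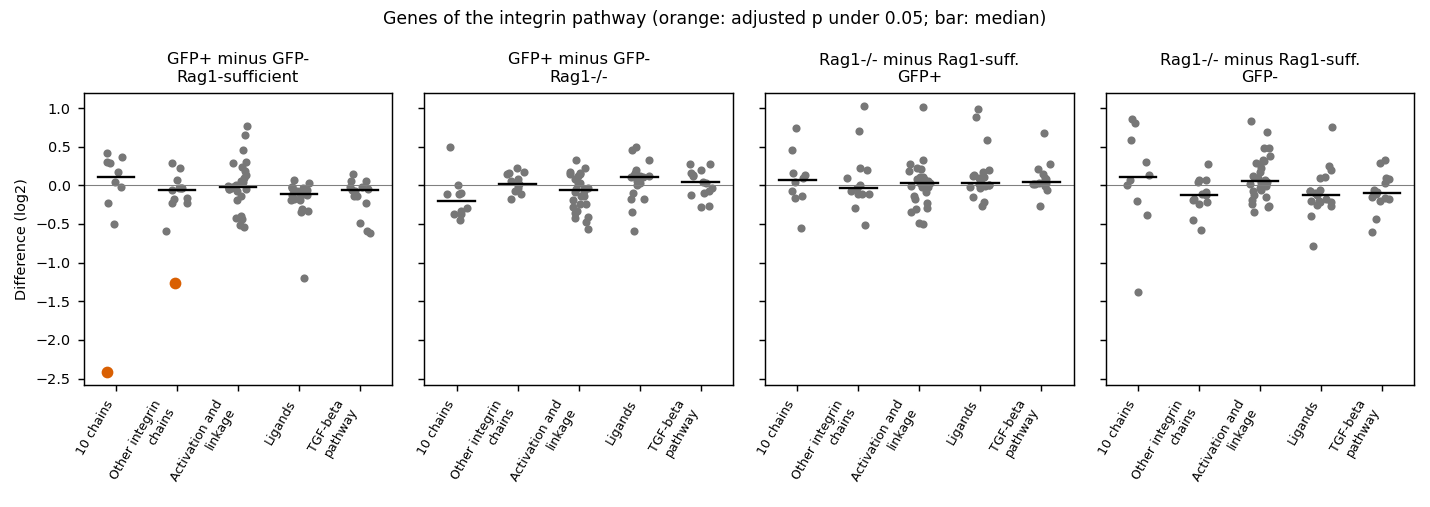
Difference in log2(intensity + 1) of single genes in the 10 integrin chains and in 4 lists of related genes, for the 4 comparisons between groups; each point is a gene, bars are medians and orange points have an adjusted p under 0.05. The 2 orange points are Itga4 (-2.42) and Itga5 (-1.27) in Rag1-sufficient mice.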

How the data were processed

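Gene expression was measured in 9 samples of sorted skin cells in 4 groups, taken from the sample titles. Linear intensities, 1 for each probe set on each array, were deposited by the authors; the submitters' processing notes name MAS5 without version or role, while the build and any scaling across arrays are not given in the sources used here. Of 24922 probe sets, 21425 carry 1 gene symbol in the platform annotation, 1399 several and 2098 none; 21347 matched the GRCm38.p6 gene table, used for current symbols. A gene with several probe sets was represented by the brightest. Intensities were transformed as log2(intensity + 1), which understates changes of dim genes, and 17445 sets passed the 30% filter. A mean per group was fitted with limma 3.58.1 in R 4.3.3 (lmFit, then eBayes with a trend on intensity; degrees of freedom 5 residual, 3.56 prior), two-sided, and tested on simulated data. Rank correlations were 0.981 to 0.992 between replicate arrays and 0.975 to 0.993 between arrays of different groups. The 10 members and the gene lists were chosen with earlier results of these data known. The genes named beside them were, per rule, the 3 most alike for Itga4, Itgae and any chain called, and of each list those past the threshold or the largest differences, of which part is given. Alternatives were a pseudocount of 16, no filter, a 50% filter, quantile normalization, no trend, array weights, a replicate block and leaving out each array. With 2 or 3 arrays a group, precision is limited by their number.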

Additional observations from a re-analysis of the deposited data

Results flagged for a closer look

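For 2 chains the groups lay apart without overlap in one context, and in the opposite direction in the other. The share of all probe sets with such a pattern was not counted. Groups without overlap were common on their own. Between gates they made up 50.2% of tested sets in Rag1-sufficient and 15.4% in Rag1-/- mice. Between genotypes they made up 29.5% in GFP+ and 40.6% in GFP- cells. Itga4 was higher in Rag1-/- than in Rag1-sufficient arrays among GFP+ cells and lower among GFP- cells, without overlap. The difference between these effects was 2.12 (limma adjusted p = 0.229). Itgae was lower in GFP+ than in GFP- arrays of Rag1-/- mice and higher in those of Rag1-sufficient mice, without overlap, and the difference between these effects was -0.66 (adjusted p = 0.280). Neither difference passed the test.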

How the results depend on the processing

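The Itga4 gate difference in Rag1-sufficient mice kept its direction under all 16 alternatives and its call under all 7 that kept every array (-2.51 to -2.10, adjusted p 0.00178 to 0.0463). Among leave-one-out fits the number of chains called there was 0 to 1 (0 without any Rag1-sufficient array); it was 0 to 0 in Rag1-/- mice and in GFP+ cells, and 0 to 1 in GFP- cells and for the interaction. Array weights gave 2 chains in the Rag1-sufficient gate comparison, where 1290 of all 17445 sets then passed, against 140 in the main fit. They gave 4 between GFP- groups (Itga4, Itgae, Itgal and Itgb7), where 1168 of all sets then passed, against 25. Leaving out 1 array gave 3 to 339 probe sets in the Rag1-sufficient gate comparison, 0 to 7 in the Rag1-/- one, 1 to 138 between genotypes in GFP+ cells, 1 to 139 in GFP- cells and 0 to 498 for the interaction. The counts of all probe sets between GFP- groups were 43 with a pseudocount of 16, 9 with the 50% filter and 1168 with array weights; between GFP+ groups 19 with quantile normalization and 3 without trend; for the interaction 1 with the 50% filter, 1 with quantile normalization and 31 with weights; and 1290 with weights in the Rag1-sufficient gate comparison.

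The 12 correlations of same-numbered deviations from group means lay between -0.507 and 0.237. In a group of 2 arrays the deviations mirror each other, so some of these values repeat. They cannot show whether samples with the same replicate number were paired. With the replicate block the calls were 73 in the Rag1-sufficient gate comparison, 2 in GFP+ and 6 in GFP- cells, Itga4 kept its call (adjusted p = 0.0463), Itga5 did not (0.0513), and Itga2 in the Rag1-/- gate comparison was -0.020 and Itgb1 between GFP- groups -0.0032.

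Some differences changed sign, none of them called; most were near 0, while Itga1 (0.50) and Itga4 (-0.29) in the Rag1-/- gate comparison were not. With quantile normalization these were Itgb1 (-0.057) in the Rag1-sufficient gate comparison; Itgav (0.022), Itgb1 (0.014) and Itgb3 (0.0056) in the Rag1-/- one; Itgav (-0.13), Itgb1 (-0.14) and Itgb3 (-0.013) between GFP- groups; and Itgb1 (0.070), Itgb2 (0.14) and Itgb3 (0.12) for the interaction. With weights Itgb1 was -0.014 between GFP- groups. Without 1 array, ranges spanned 0 for Itga2 (-0.10 to 0.46) and Itgb3 (-0.17 to 0.13) in the Rag1-sufficient gate comparison. In the Rag1-/- one they did for Itga4 (-0.79 to 0.20), Itga1 (-0.21 to 1.20), Itga2 (-0.12 to 0.14) and Itgb1 (-0.35 to 0.16). Between GFP+ groups they did for Itga1 (-0.77 to 0.63), Itgal (-0.40 to 0.076), Itgb1 (-0.39 to 0.12), Itgb3 (-0.11 to 0.19) and Itgb7 (-0.21 to 0.40); between GFP- groups for Itgav (-0.015 to 0.15) and Itgb1 (-0.010 to 0.035); and for the interaction for Itga1 (-0.57 to 0.84), Itga2 (-0.45 to 0.11), Itgb1 (-0.39 to 0.11) and Itgb3 (-0.24 to 0.061). The causes were not tested. The 50% filter dropped Itga1. Groups of 2 or 3 arrays limit every value, and dim signals near the filter limit, such as Itga4 in Rag1-sufficient GFP+ cells, limit the size of a difference.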
